A study of Homo sapiens with 4 samples.

Results

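The genes described here fold, process, export and dispose of secretory proteins in the endoplasmic reticulum (ER), together with the sensors that watch over that work. They were taken from a list of 48 names, by an exact match to the gene name in both deposited tables, and 47 of the 60612 genes in each table matched. The name without a match, VIMP, is an older symbol of SELENOS in the RefSeq gene table, and SELENOS is among the 47. They were sorted by function into 13 chaperones and co-chaperones, 7 genes of disulfide formation, 13 of translocation, signal cleavage and export, 11 of degradation, and 3 sensors.

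Plasma cells are antibody factories, and their ER is correspondingly large. A new secretory chain enters the ER through the SEC61 channel, loses its signal peptide, is folded by chaperones and disulfide isomerases, and leaves in COPII vesicles or, if it fails to fold, is pulled back to the cytosol for degradation. When unfolded protein builds up, the sensors IRE1 (ERN1), PERK (EIF2AK3) and ATF6 start the unfolded protein response (UPR), which raises the chaperone and degradation genes and slows translation. Myeloma cells keep this secretory load, and are known for their sensitivity to proteasome inhibitors.

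RNA was measured in 4 libraries from H929 and KMS28BM, established lines of multiple myeloma, the cancer of plasma cells. For each line there was 1 library of cells before they went through a microfluidic sorting chip and 1 of cells after it, and the labels name no treatment or genetic change. The series title appears to call the libraries labelled after sorting the unsorted ones; directions here go by the labels of the samples, and each reverses if the title holds instead. Each group holds 1 library, so differences within a line are given with no test, and in such bulk samples fewer cells expressing a gene cannot be told apart from less RNA per cell.

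Values are FPKM, which scale the fragments of a gene by transcript length and library total. By an estimate of depth from the lowest values, 1 FPKM on a transcript of 2000 bases stands for between 42.4 and 49.7 fragments, depending on the library. At least 1 FPKM was listed for between 9303 and 10782 genes a library. Of 10 plasma cell markers, 9 reached 1 FPKM in every library. JCHAIN, the joining chain of polymeric antibodies, was the highest of them, at 1142 FPKM before and 589 after sorting in H929, and at 1422 and 2431 in KMS28BM. The summed level of the 10 markers was 1921 and 1002 FPKM in H929 but 1880 and 2911 in KMS28BM. JCHAIN made up most of each sum and nearly all of the rise in KMS28BM. The remaining markers together were nearly level in KMS28BM and lower after sorting in H929. The part of the marker levels in the results below was not tested. Of 5 B cell stage markers, BCL6 alone reached 1 FPKM, at 1.28 at most. Among markers of T and NK cells, monocytes, stroma, endothelium and red cells, GNLY alone passed 1 FPKM in any library, at 1.34 in the H929 library labelled after sorting.

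Many promoters of ER chaperone genes carry the ER stress response element, the letters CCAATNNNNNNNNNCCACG, which ATF6 and the factor NF-Y are known to bind together. Sequence upstream of the RefSeq start sites (GRCh38.p14, 250 bases before each start) was matched by symbol for 42 of the 47 genes; SPCS1, PDIA3, DERL1, SEC24D and DERL3 did not match. The element was searched on both strands, its reverse complement being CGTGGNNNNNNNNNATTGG. It was found upstream of 7 of the 42 genes (16.7%), against 25 of all 27305 genes in the table (0.0916%). The 7 were HSPA5, HSP90B1, CALR, CANX, CRELD2, PDIA6 and ERO1B. The related element, ATTGG then 1 base of any kind then CCACG, was searched later than the first, as was the third, both also on both strands. It was found upstream of SDF2L1, HYOU1 and HERPUD1, 3 of 42 genes against 18 of all (0.0659%). The core TGACGTGG, known as a site of XBP1, was found upstream of HYOU1, TXNDC5, SSR3 and SSR4, against 213 genes in all (0.78%); in HYOU1 it overlaps a match of the second element. The searches describe letters only.

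The upstream sequences of HSP90B1 and HSPA5 are shown. They were chosen by the number of matches of the first element, with ties taken in the order of the gene list. Capitals mark the fixed letters of each full match. HSP90B1 lies on chr12 on the plus strand, and the bases shown are chr12:103930160-103930409. HSPA5 lies on chr9 on the minus strand, and the bases shown, read 5′ to 3′ on that strand, are chr9:125241344-125241593.
HSP90B1: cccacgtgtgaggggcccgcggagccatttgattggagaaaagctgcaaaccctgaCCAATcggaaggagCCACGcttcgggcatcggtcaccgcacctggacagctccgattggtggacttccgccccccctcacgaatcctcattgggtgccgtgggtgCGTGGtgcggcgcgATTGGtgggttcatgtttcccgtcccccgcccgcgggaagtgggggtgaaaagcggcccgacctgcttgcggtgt
HSPA5: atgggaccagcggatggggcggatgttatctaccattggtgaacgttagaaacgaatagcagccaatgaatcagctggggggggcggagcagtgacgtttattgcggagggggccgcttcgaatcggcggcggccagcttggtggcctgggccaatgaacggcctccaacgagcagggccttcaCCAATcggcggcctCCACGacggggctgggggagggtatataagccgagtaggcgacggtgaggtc
HSP90B1 held 2 matches, 1 on each strand, and HSPA5 held 1 match that ended 48 bases before the start site.

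The first question was how abundant these genes were. Most of them lay above the median of all genes at 1 FPKM or more. Of the 47, 42 did before and 38 after sorting in H929, and 42 and 44 in KMS28BM. The median over the 47 genes was 27.0 FPKM in H929 before and 22.8 after sorting, and 34.2 and 48.1 in KMS28BM, while the median of all genes at 1 FPKM or more lay between 5.08 and 5.48. Together they made up 1.26% and 1.15% of the summed FPKM in H929, and 1.47% and 1.75% in KMS28BM. The highest was TXNDC5 in both H929 libraries, at 1059 and 727 FPKM. In KMS28BM it was CALR before sorting, at 1178 FPKM, and HSPA5 after, at 1181. ERO1B was the lowest in all 4 libraries, between 0.547 and 1.68 FPKM, or about 53 to 190 fragments. All 47 passed a filter of 1 FPKM in either library of a line; ERO1B in both lines and EDEM3 in KMS28BM passed through 1 library only.

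**Figure D1:**
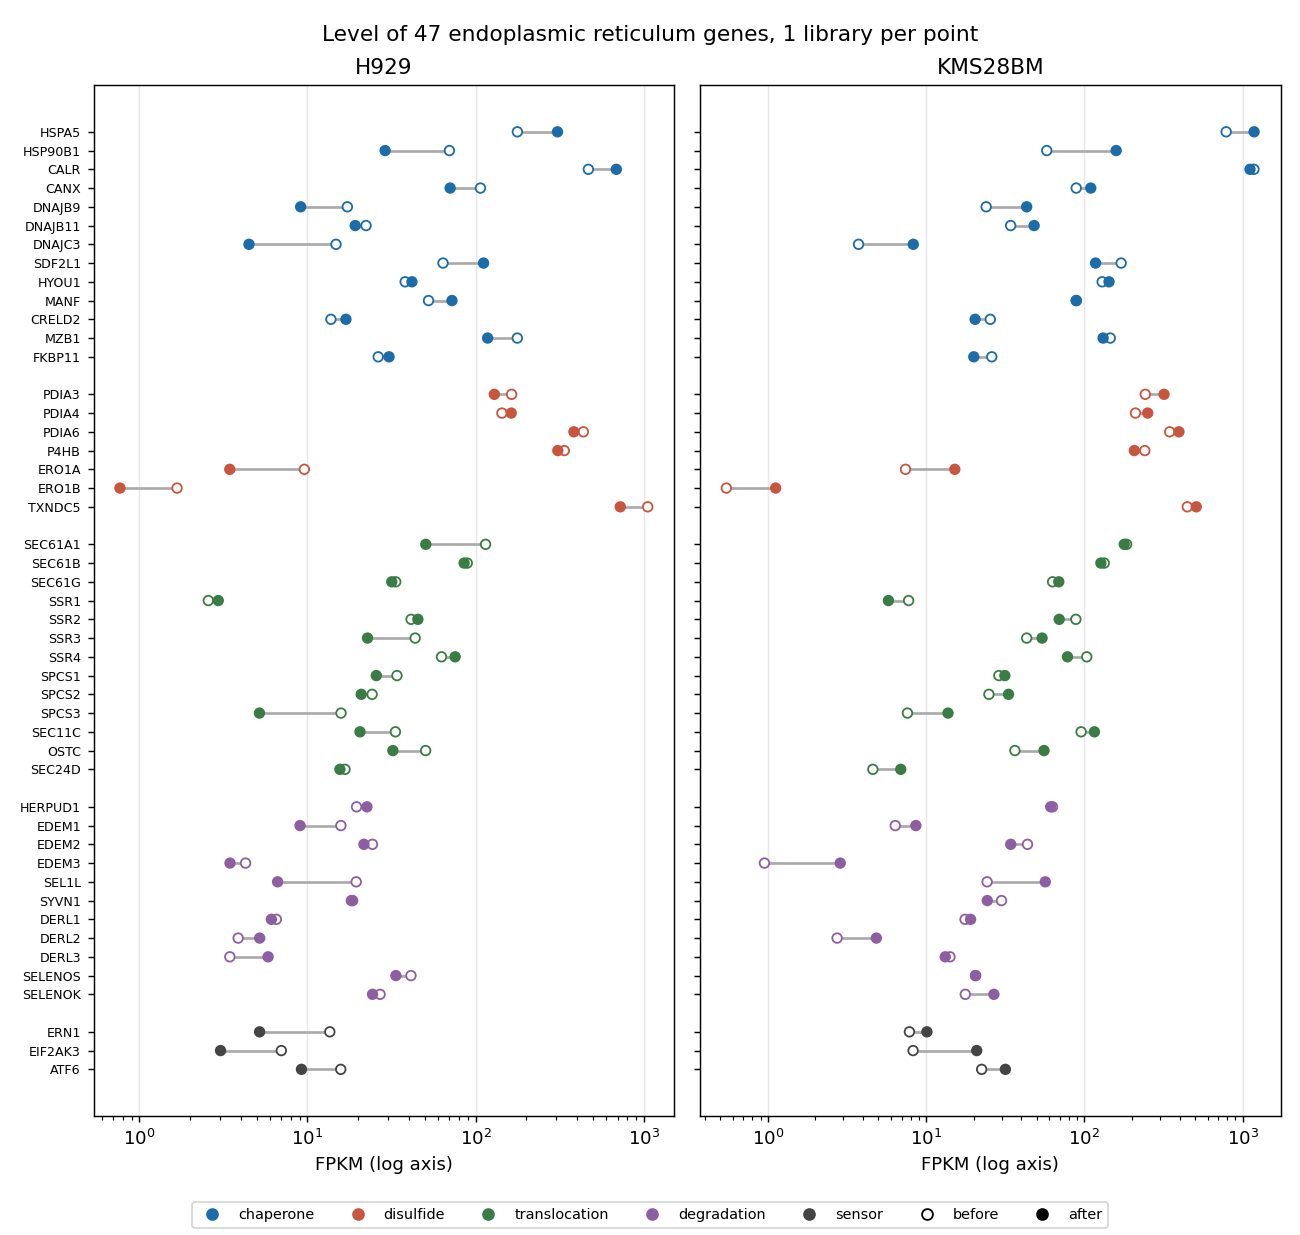
Level of each of the 47 genes in FPKM on a log axis, H929 at the left and KMS28BM at the right; open points are the library labelled before sorting, filled points the one labelled after, coloured by function, with 1 library per point. Filled points lie mostly to the left of open ones in H929 (32 of 47) and to the right in KMS28BM (31 of 47).

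The second question was how the library labelled after sorting differed from the one labelled before, within each line. As deposited, more of the genes stood lower than higher after sorting in H929. Ratios are log2 of FPKM plus 1, after over before. In H929 32 of the 47 ratios were below 0 (68.1%, against 58.3% of all genes measured), and the median was -0.20, beside -0.11 over all 11083 genes measured. Of the 47, 7 stood 2-fold or more lower and 0 stood 2-fold higher; over all genes measured, 5.17% were 2-fold lower and 1.59% higher. The 7 were the chaperones HSP90B1 and DNAJC3, the oxidase ERO1A, the channel subunit SEC61A1, the signal peptidase subunit SPCS3, the degradation adaptor SEL1L and the sensor ERN1. EIF2AK3 lay just short of 2-fold, at -0.98. With a pseudocount of 0.1 in place of 1, 9 of the 47 stood 2-fold lower, against 13.7% of all genes. At 5 FPKM in either library 44 of the 47 were kept, with a median of -0.20 and 68.2% below 0. All 5873 genes kept at that filter had a median of 0.031, with 47.4% below 0.

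In KMS28BM the balance lay the other way: 31 ratios were above 0 (66.0%, against 59.4% of all genes measured), with a median of 0.25 beside 0.12 over all 10472 genes measured. There 3 of the 47 stood 2-fold or more higher and 0 stood lower, against 4.13% and 1.12% of all genes. The 3 were HSP90B1, SEL1L and EIF2AK3. At 5 FPKM in either library the median was 0.19 over the 44 genes of the set that were kept. Over all 5392 genes kept it was 0.0034. EDEM3 at 0.99 and DNAJC3 at 0.97 lay just short of 2-fold, and with a pseudocount of 0.1 in place of 1 the count was 6, against 12.3% of all genes. At 1.5-fold 3 of the 47 were higher and 16 lower in H929, against 7.4% and 18.8% of all genes, and 11 were higher and 0 lower in KMS28BM, against 18.4% and 4.31%. At 4-fold 0 were called in either direction, where 0.208% and 0.325% of all genes were in H929 and 0.248% and 0.181% in KMS28BM. Under a trimmed-mean scaling the median of all genes was 0.10 in H929 and -0.063 in KMS28BM, and that of the 47 was 0.042 and 0.021, so the direction of the median in H929 turned with the scaling, and 22 of the 47 ratios were then below 0 in H929 and 24 above 0 in KMS28BM. Of the 47, 2 were then 2-fold higher (HSPA5 and SDF2L1) and 5 lower in H929, against 3.39% and 2.96% of all genes. In KMS28BM 2 were higher (HSP90B1 and EIF2AK3) and 0 lower, against 1.88% and 1.62%. Ratios in both lines also followed the GC content of the transcripts, which is taken up after the genes. Removing that trend turned the sign of 11 of the 47 ratios in H929 and of 15 in KMS28BM, and the values with the trend removed are given below for each of these and for the larger ratios.

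The abundant chaperones came first. HSPA5 (ENSG00000044574), the HSP70 of the ER (BiP) and the usual gauge of the unfolded protein response, stood at 177 FPKM before and 307 after sorting in H929. In KMS28BM it stood at 787 and 1181 FPKM. Both libraries labelled after sorting were thus the higher of their pair, with log2 ratios of 0.79 and 0.59, and both KMS28BM libraries lay above both H929 libraries. It was the single gene of the 47 at 1.5-fold or more higher in both lines (0.508% of the 9261 genes measured in both). The KMS28BM ratio of 0.586 only just met that mark, and it was missed with a pseudocount of 5 (0.584), median centring (0.583) or the trimmed mean (0.35). The ratios of HSPA5 with the GC and length trend removed were 1.05 and 0.19.

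HSP90B1 (ENSG00000166598), the HSP90 of the ER (GRP94), which folds integrins, Toll-like receptors and immunoglobulin chains, went opposite ways in the lines. It stood at 69.9 FPKM before and 28.99 after sorting in H929. In KMS28BM it stood at 57.8 and 158.84 FPKM. The levels labelled before sorting were alike, and those labelled after sorting lay on either side of them, with log2 ratios of -1.24 and 1.44, or -0.91 and 0.95 with the trend removed. HSPA5 and HSP90B1, which are usually raised together by the unfolded protein response, thus did not keep a fixed proportion. The level of HSPA5 over that of HSP90B1, both per length, was 2.54 before and 10.6 after sorting in H929. In KMS28BM it was 13.6 before and 7.44 after.

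The lectin chaperones hold glycoproteins during folding. CALR, the soluble lectin calreticulin, stood at 469 and 689 FPKM in H929 and at 1178 and 1113 in KMS28BM, ratios of 0.55 and -0.083. CANX, its membrane partner calnexin, stood at 107 and 70.6 FPKM in H929 and at 88.8 and 109.72 in KMS28BM, ratios of -0.59 and 0.30. The ratio of CALR was above that of CANX in H929 and below it in KMS28BM. This reversal was lost with the trend removed, when CALR had 0.39 and -0.011 and CANX -0.13 and -0.28, CALR being above CANX in both lines.

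The co-chaperones that drive HSPA5 through its cycle differed among themselves. DNAJC3 (ENSG00000102580), which presents clients to HSPA5, stood at 14.8 and 4.49 FPKM in H929 and at 3.75 and 8.30 in KMS28BM, ratios of -1.52 and 0.97. DNAJB9 (ERdj4), which helps to hold IRE1 inactive, stood at 17.3 and 9.11 FPKM in H929 and at 23.97 and 43.2 in KMS28BM, ratios of -0.85 and 0.82. DNAJB11 (ERdj3) differed less, with ratios of -0.20 and 0.48. Once the trend was removed DNAJC3 had ratios of -0.94 and 0.30, and DNAJB9 of -0.45 and 0.27. SDF2L1, a partner of DNAJB11, went the other way, at 64.1 and 112 FPKM in H929, 171 and 118 in KMS28BM, ratios of 0.79 and -0.53. Its ratios were 0.46 and -0.019 with the trend removed, so little of the KMS28BM difference was left. HYOU1, a nucleotide exchange factor of HSPA5, was nearly level in both lines, with ratios of 0.13 and 0.14.

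The remaining chaperones had ratios under 1.5-fold in either line. MANF and CRELD2, small secreted proteins of the stress response, had ratios of 0.46 and 0.28 in H929 and 0.0043 and -0.30 in KMS28BM. FKBP11, a prolyl isomerase of secretory cells, had ratios of 0.21 and -0.36. Removing the trend gave CRELD2 ratios of -0.018 and 0.028 and FKBP11 ratios of -0.058 and -0.13. MZB1, a plasma cell co-chaperone that aids antibody assembly, stood at 177 and 118 FPKM in H929 and at 146 and 131 in KMS28BM, ratios of -0.58 and -0.15. Its ratios came to -0.94 and 0.31 with the trend removed; its GC content is 60.6%. Over the 13 chaperones the median ratio was 0.13 in H929 and 0.14 in KMS28BM, and it was -0.058 and 0.19 with the trend removed.

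Disulfide formation needs isomerases, which shuffle bonds, and oxidases, which recharge them. The isomerases differed little. PDIA4 had ratios of 0.18 in H929 and 0.25 in KMS28BM, PDIA6 of -0.19 and 0.19, P4HB of -0.13 and -0.22, and PDIA3 of -0.34 and 0.39. Removing the trend turned PDIA3 to -0.089 and PDIA6 to -0.15 in KMS28BM, with -0.0049 and -0.0047 in H929. PDIA3, the isomerase that works with calnexin and calreticulin, stood at 164 and 129 FPKM in H929 and at 243 and 319 in KMS28BM. It shared 15.3% of its 50-base words with other genes, the most with its pseudogene PDIA3P1. That pseudogene was listed at 12.3 and 7.86 FPKM in H929 and at 1.16 and 25.1 in KMS28BM, so reads of the pair can be split between them. TXNDC5, an isomerase abundant in plasma cells, stood at 1059 and 727 FPKM in H929 and at 447 and 509 in KMS28BM, ratios of -0.54 and 0.19. Of its words, 60.3% were also in other genes, the most in the read-through gene BLOC1S5-TXNDC5. That gene was listed at the table's floor of 0.0001 FPKM in all 4 libraries.

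ERO1A, the oxidase that passes electrons from isomerases to oxygen, differed more than they did. It stood at 9.58 and 3.45 FPKM in H929 and at 7.42 and 15.2 in KMS28BM, ratios of -1.25 and 0.94. Its paralog ERO1B stood at 1.68 and 0.766 FPKM in H929 and at 0.547 and 1.12 in KMS28BM, ratios of -0.60 and 0.46. The level of PDIA6 over that of ERO1A, both per length, was 45.8 before and 111.7 after sorting in H929 and 46.6 and 26.1 in KMS28BM. The GC contents of the oxidases are 38.7% and 37.0%, and with the trend removed ERO1A had ratios of -0.63 and 0.24 and ERO1B of 0.065 and -0.27.

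At the entry gate the subunits of the SEC61 channel did not have like ratios in H929. SEC61A1 (ENSG00000058262), which forms the pore, stood at 115 and 50.6 FPKM in H929 and at 185 and 179 in KMS28BM, ratios of -1.17 and -0.049. SEC61B stood at 89.3 and 85.5 FPKM in H929 and SEC61G at 33.5 and 31.7, with ratios of -0.062 and -0.075. The level of SEC61A1 over that of SEC61B, both per length, was 1.29 before and 0.592 after sorting in H929, and 1.38 and 1.40 in KMS28BM. SEC61A1 has a GC content of 53.8%, against a median of 50.0% over coding genes, and its H929 ratio was -1.18 with the trend removed. Under the trimmed-mean scaling that ratio was -0.91, short of 2-fold. In KMS28BM SEC61B and SEC61G had ratios of -0.069 and 0.13.

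The translocon-associated complex, which sits beside the channel, was uneven as deposited. SSR3 stood at 43.7 and 22.8 FPKM in H929 and at 43.2 and 54.0 in KMS28BM, ratios of -0.91 and 0.32. SSR1, SSR2 and SSR4 had ratios of 0.14, 0.13 and 0.27 in H929 and of -0.37, -0.34 and -0.40 in KMS28BM. With the trend removed SSR3 had -0.42 and -0.30, SSR2 -0.060 and -0.24, and SSR4 -0.020 and -0.040, so that in KMS28BM all members of the complex were below 0. SSR1 was far lower than its partners, between 2.57 and 7.76 FPKM. Its longest coding transcript is 9669 bases long with a GC content of 40.6%. Its ratios with the trend removed were 0.76 and -1.02, the latter being the single ratio of the 47 past 2-fold lower in KMS28BM under that setting.

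Signal peptides are cut off by the signal peptidase complex. SPCS3, its glycosylated subunit, stood at 15.8 and 5.18 FPKM in H929 and at 7.62 and 13.8 in KMS28BM, ratios of -1.45 and 0.77, or -0.73 and 0.023 with the trend removed. The catalytic subunit SEC11C stood at 33.4 and 20.5 FPKM in H929 and at 95.4 and 116 in KMS28BM, ratios of -0.67 and 0.28. SPCS1 had ratios of -0.39 and 0.12, and SPCS2 of -0.21 and 0.40. All of these turned in KMS28BM with the trend removed: SEC11C had -0.32 and -0.23, SPCS1 -0.077 and -0.33, and SPCS2 0.28 and -0.21. SPCS2 shared 15.8% of its words with other genes, the most with SPCS2P4, a pseudogene listed between 15.4 and 45.9 FPKM. OSTC, which links the glycan transferase to the channel, stood at 50.5 and 32.2 FPKM in H929 and at 36.4 and 55.6 in KMS28BM, ratios of -0.63 and 0.60, or -0.37 and 0.22 with the trend removed. SEC24D, a cargo adaptor of COPII coats, had ratios of -0.095 and 0.50, or 0.19 and 0.073 with the trend removed. Over these 13 genes the median was -0.21 in H929 and 0.13 in KMS28BM.

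In the degradation branch SEL1L stood out. SEL1L (ENSG00000071537), which holds the ubiquitin ligase SYVN1 (HRD1) in place, stood at 19.5 and 6.64 FPKM in H929. In KMS28BM it stood at 24.3 and 56.6 FPKM. The library labelled after sorting was thus lower in H929 and higher in KMS28BM, with ratios of -1.42 and 1.19, or -0.77 and 0.49 with the trend removed. The ligase itself differed little: SYVN1 stood at 18.2 and 18.6 FPKM in H929 and at 29.96 and 24.4 in KMS28BM, ratios of 0.023 and -0.29, or -0.12 and -0.14 with the trend removed. HERPUD1, an adaptor of the same complex and a well-known stress target, stood at 19.6 and 22.6 FPKM in H929 and at 62.9 and 61.3 in KMS28BM, ratios of 0.20 and -0.037, or 0.32 and -0.31 with the trend removed.

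The EDEM lectins trim mannose from proteins that are to be destroyed. EDEM1 stood at 15.8 and 9.03 FPKM in H929 and at 6.39 and 8.62 in KMS28BM, ratios of -0.74 and 0.38, or -0.37 and -0.096 with the trend removed. EDEM3 stood at 4.28 and 3.46 FPKM in H929 and at 0.953 and 2.87 in KMS28BM, ratios of -0.24 and 0.99, and its lowest value rests on about 139 fragments. Its ratios were 0.42 and 0.27 with the trend removed, which turns the direction in H929. EDEM2 had ratios of -0.16 and -0.34. The derlins form part of the exit channel: DERL1 had ratios of -0.085 and 0.11, DERL2 of 0.35 and 0.65, and DERL3 of 0.62 and -0.093. Removing the trend gave DERL1 ratios of 0.18 and -0.31, DERL2 of 0.89 and -0.0089, and DERL3 of 0.47 and 0.087. The selenoproteins SELENOS and SELENOK, partners of the exit complex, had ratios of -0.29 and -0.14 in H929 and of -0.0011 and 0.57 in KMS28BM. SELENOK had 0.057 and 0.21 with the trend removed.

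All 3 sensors stood lower after sorting in H929 and higher in KMS28BM. ERN1 (IRE1, ENSG00000178607), which splices XBP1 mRNA, stood at 13.6 and 5.19 FPKM in H929. In KMS28BM it stood at 7.85 and 10.1 FPKM. The ratios were -1.24 and 0.33, or -1.03 and 0.089 with the trend removed. EIF2AK3 (PERK, ENSG00000172071), which slows translation, stood at 6.99 and 3.04 FPKM in H929. In KMS28BM it stood at 8.28 and 20.9 FPKM. The ratios were -0.98 and 1.24, or -0.63 and 0.75 with the trend removed. ATF6 stood at 15.8 and 9.21 FPKM in H929 and at 22.4 and 31.7 in KMS28BM, ratios of -0.72 and 0.48, and these came to -0.15 and -0.16 with the trend removed.

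**Figure D2:**
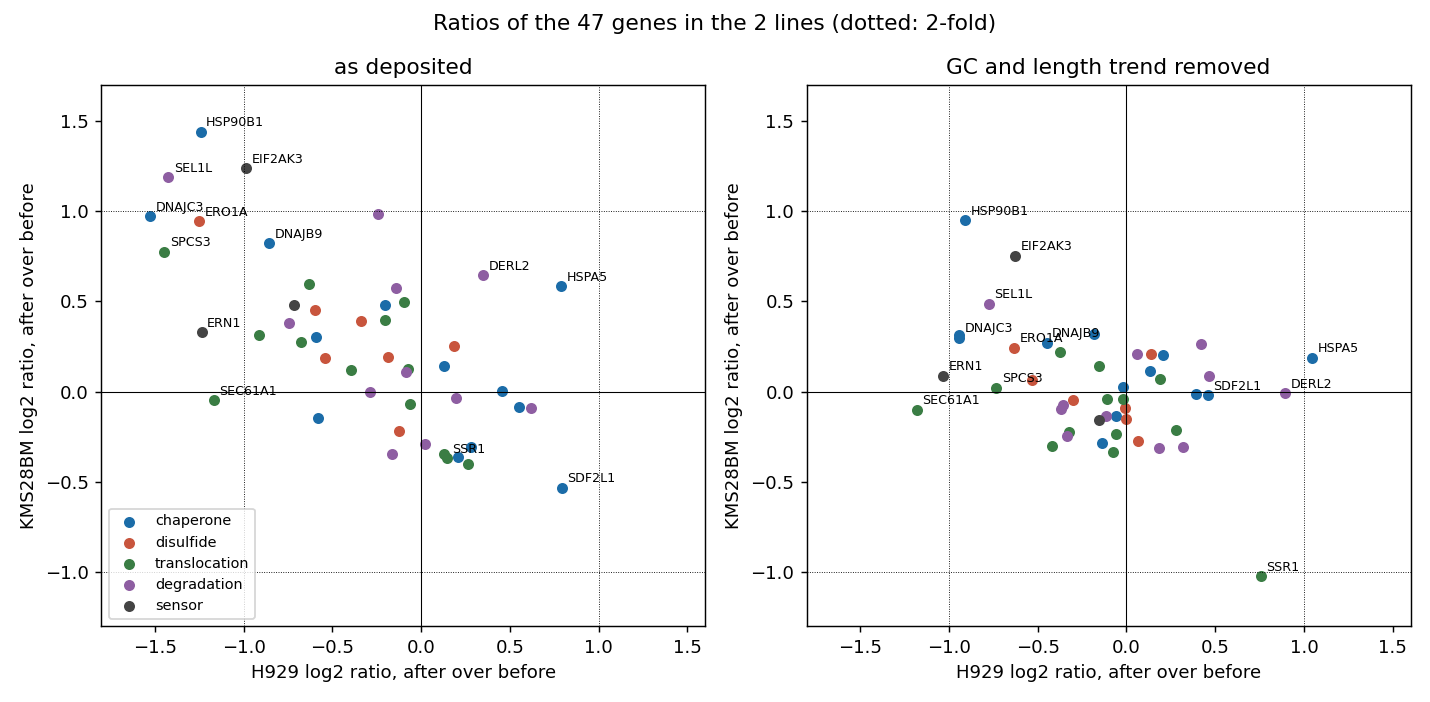
Log2 ratio after over before sorting in H929 (horizontal) against KMS28BM (vertical), 1 point per gene of the 47 coloured by function, as deposited at the left and with the GC and length trend removed at the right; dotted lines mark 2-fold. At the left HSP90B1 and SEL1L lie past both 2-fold lines at the upper left and EIF2AK3 (-0.98 and 1.24) just short of that corner; at the right no gene lies in it, HSP90B1 (-0.91 and 0.95) being just short, while HSPA5 lies to the right of 0 in both panels.

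Most of these genes, like the genes at large, went opposite ways in the lines. The ratios had opposite signs in the lines for 36 of the 47 genes (76.6%) and for 69.1% of the 9261 genes measured in both. Of the 47, 8 stood 1.5-fold or more lower in H929 and 1.5-fold or more higher in KMS28BM (17.0%), against 8.93% of all genes. They were HSP90B1, DNAJB9, DNAJC3, ERO1A, SPCS3, OSTC, SEL1L and EIF2AK3. With the trend removed, HSP90B1 and EIF2AK3 met this mark, 4.26% of the 47 against 1.19% of all genes, and SSR1 met its mirror image, as did 1.04% of all genes. As deposited 0 of the 47 met that mirror image (0.864% of all genes) and 0 were lower in both lines (0.518%). Lower in both were also 0 with the trend removed (0.455%), and higher in both 0 (0.552%). The difference between the lines has no test here, since each ratio comes from 1 pair of libraries.

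The ratios of the 47 genes went with the GC content of their transcripts, in opposite directions in the lines. Over the 47 genes the rank correlation (Spearman rho) of ratio with GC content was 0.60 in H929 and -0.77 in KMS28BM, as a description of genes that share the same libraries. Over all protein-coding genes measured it was 0.55 (n = 9229) and -0.75 (n = 8892). The 23 genes with a GC content below their median of 45.8% had a median ratio of -0.63 in H929 and 0.50 in KMS28BM, while the other 24 had 0.077 and -0.059. All 3 genes 2-fold higher in KMS28BM and 5 of the 7 genes 2-fold lower in H929 belonged to the GC-poor side; SEC61A1 and ERN1 were the 2 others.

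A curve was fitted on the protein-coding genes of each line, cubic in GC content and cubic in log2 length. It took up 30.9% of the variance of their ratios in H929 and 52.4% in KMS28BM. With it removed, rho over the 47 genes was 0.13 and -0.010, and their medians were -0.11 and -0.011, beside -0.0076 and 0.0064 over all genes. Of the 47, HSPA5 then stood 2-fold higher in H929 (background 2.34%), and ERN1 and SEC61A1 stood 2-fold lower (background 2.32%). In KMS28BM 0 stood 2-fold higher (background 1.23%) and SSR1 stood lower (background 1.13%). Of the 7 H929 genes and 3 KMS28BM genes 2-fold apart as deposited, ERN1 and SEC61A1 in H929 thus kept their place.

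**Figure D3:**
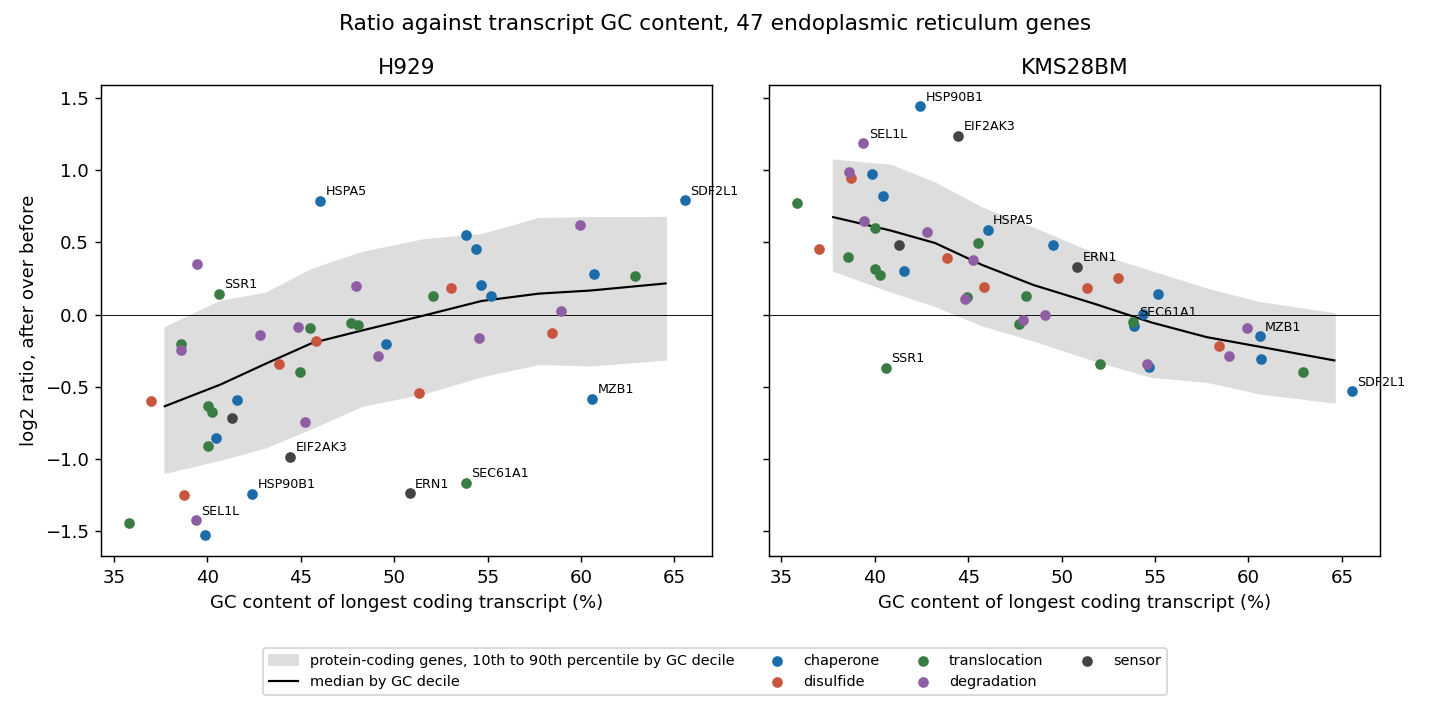
Log2 ratio after over before sorting against the GC content in percent of the longest coding transcript, for the 47 genes coloured by function; the black line is the median and the grey band the 10th to 90th percentile of all protein-coding genes by GC decile. The band slopes up in H929, where 33 of the 47 lie within it, 9 below (ERN1 and SEC61A1 among them) and 5 above (HSPA5 among them), and down in KMS28BM, where 42 lie within it, 2 below and 3 above.

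By function, the sensors had the lowest median in H929, -0.98, and the highest in KMS28BM, 0.48, over 3 genes. The disulfide genes had -0.34 and 0.25 and the degradation genes -0.14 and 0.11. The sensor medians with the trend removed were -0.63 and 0.089, those of the disulfide genes -0.0049 and -0.048, and those of the degradation genes 0.057 and -0.072. In KMS28BM the chaperones, at 0.19, then had the highest median in place of the sensors. The chaperones held both extremes of the H929 ratios, from -1.52 for DNAJC3 to 0.79 for SDF2L1. Summed levels tell the weight of the abundant genes: the chaperones came to 1250.32 and 1520 FPKM in H929 and to 2760 and 3184 in KMS28BM, and the sensors to 36.4 and 17.4 FPKM and to 38.6 and 62.7.

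**Figure D4:**
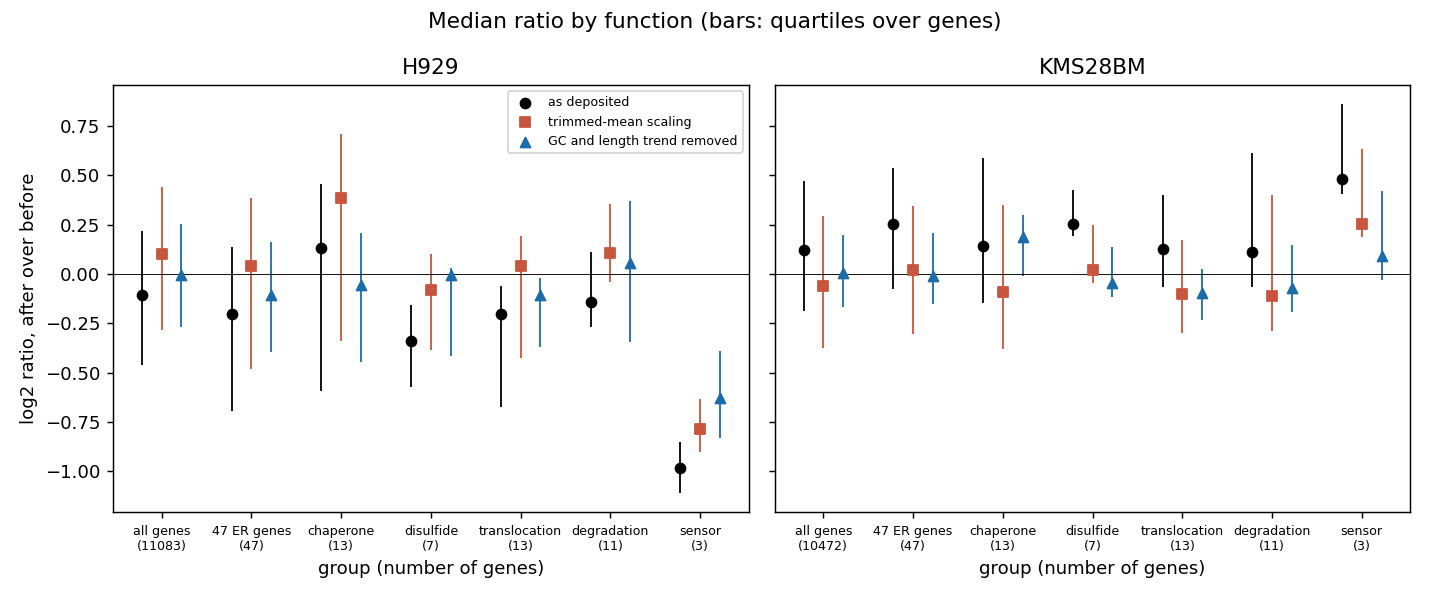
Median log2 ratio after over before sorting for all genes measured, for the 47 genes and for each function, in H929 and KMS28BM; circles are the values as deposited, squares a trimmed-mean scaling, triangles the values with the GC and length trend removed, and bars span the quartiles over genes. The sensors lie below 0 in H929 (-0.98, -0.79 and -0.63) and above 0 in KMS28BM under the 3 settings, while the median of the 47 genes changes sign with the scaling in H929 and with the trend removed in KMS28BM.

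The third question was whether any gene differed in the same way in both lines, comparing libraries of the same line. None of the 47 passed limma's moderated test at an adjusted p under 0.05 (0.114% of all 12294 genes did), and 0 had an unadjusted p under 0.05 (1.5% of all genes did). HSPA5 came nearest, at 0.69 on the log2 scale over both lines (SE 0.37, limma adjusted p = 0.99999), and was higher after sorting in 2 of 2 lines. SEC61A1 followed at -0.61 (SE 0.39). For HSP90B1 the shared change was 0.10 with an SE of 0.44, and for EIF2AK3 it was 0.13 with an SE of 0.44. The test has 1 residual degree of freedom per gene, which is the disagreement between the lines.

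The authors' deposited table marks 4 of the 47 genes as significant in H929, DNAJC3, ERO1A, SPCS3 and SEL1L, among 954 of all 60612 genes. In KMS28BM it marks EDEM3, among 586 of 60612. EDEM3 passed the 1 FPKM filter there through 1 library only. Between 36942 and 39183 of the 60612 genes lay at the floor, depending on the library. The mark matches an unadjusted p under 0.05 in the authors' deposited table. The smallest q-value among the 47 there was 0.468 in H929, for DNAJC3, and 0.998 in KMS28BM.

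The fourth question was whether the lines differ in their ER. Whether the tables of the lines were normalized together is not given, so levels are set side by side with no test. Over 3756 genes at 5 FPKM or more in all libraries the median log2 difference between the lines was 0.074. Both KMS28BM libraries stood at least 2-fold above both H929 libraries, on FPKM plus 1, for 6 of the 47 genes, where 6.55% of all 12294 genes did. They were HSPA5, HYOU1, SEC11C, HERPUD1, DERL1 and DERL3. After centring on the median difference DERL3 fell short, leaving 5 (6.04% of all genes). HYOU1 was at 38.1 and 41.9 FPKM in H929 and at 130 and 143 in KMS28BM. SEC11C was at 33.4 and 20.5 against 95.4 and 116, and DERL3, a derlin typical of secretory cells, at 3.45 and 5.83 against 14.2 and 13.2. SEC24D alone was 2-fold higher in H929 by the same mark (8.9% of all genes were, or 9.47% after centring), at 16.7 and 15.6 FPKM against 4.61 and 6.92.

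Other genes of the same pathways were taken from 7 lists of 124 genes. In H929 1 of the 114 measured stood 2-fold higher and 8 lower, with a median of -0.19. In KMS28BM 5 of 118 stood higher and 0 lower, with a median of 0.21. These shares, like those of the 47 genes, sit beside the backgrounds of 1.59% and 5.17% in H929 and of 4.13% and 1.12% in KMS28BM. Once the trend was removed the counts were 3 higher and 1 lower in H929, against backgrounds of 2.34% and 2.32%, and 0 and 0 in KMS28BM, against 1.23% and 1.13%. The medians were then -0.077 in H929 and -0.021 in KMS28BM, so the latter turned.

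The transcription factors downstream of the sensors were nearly level in KMS28BM. XBP1, the factor that IRE1 activates by splicing, stood at 305 and 191 FPKM in H929 and at 117 and 122 in KMS28BM. ATF4, translated when PERK acts, stood at 41.0 and 28.9 FPKM in H929 and at 103 and 95.6 in KMS28BM. DDIT3 (CHOP), a pro-death target of ATF4, stood at 12.9 and 6.96 FPKM in H929 and at 28.2 and 28.1 in KMS28BM. PPP1R15A (GADD34), which ends the PERK signal, was at 262 and 258 FPKM in H929 and at 331 and 327 in KMS28BM. In H929 the ratios of XBP1, ATF4 and DDIT3 were -0.67, -0.49 and -0.80, and with the trend removed they were -0.73, -0.70 and -0.92. Spliced and unspliced XBP1 are not separated in gene-level values.

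Of the listed genes at 5 FPKM or more, the lowest ratios in H929 belonged to HSPA13, an ER HSP70 relative (-1.44), the p97 adaptor UBXN4 (-1.43) and UBE2J1, a ubiquitin-conjugating enzyme of ER degradation (-1.40). They stood at -0.71, -0.94 and -0.88 with the trend removed, all short of 2-fold. TRIB3, a stress-induced pseudokinase named here after its values were seen, went from 33.2 to 13.1 FPKM in H929, a ratio of -1.27, and was the single listed gene 2-fold lower there with the trend removed, at -1.48. The highest there were the collagen chaperone SERPINH1 (1.17), the glycan transferase subunit OST4 (0.77) and SRP9 (0.69), a part of the signal recognition particle. With the trend removed these 3 had 1.05, 0.50 and 1.13. In KMS28BM the highest were SRP72 (1.39), another part of that particle, the cargo receptor LMAN1 (1.27) and HSPA13 (1.16). These came to 0.76, 0.59 and 0.41 with the trend removed, all short of 2-fold. The lowest in KMS28BM were PREB (-0.65), which starts COPII coats, TRIB3 (-0.49) and the glycan transferase subunit DDOST (-0.45). They had -0.44, -0.25 and -0.39 with the trend removed. The targeting and translocation list had the largest medians, -0.51 in H929 and 0.65 in KMS28BM over 14 genes, which came to -0.12 and 0.14 with the trend removed.

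Genes with and without the ER stress response element upstream were compared by their median ratios, with no test made. The 7 genes with it had median ratios of -0.19 in H929 and 0.30 in KMS28BM, and the 35 other genes with a matched upstream sequence -0.21 and 0.25. The 35 still include SDF2L1, HYOU1 and HERPUD1, which hold the second element, and TXNDC5, SSR3 and SSR4, which hold the XBP1 core. The medians with the trend removed were -0.0047 against -0.18 in H929 and -0.011 against -0.0089 in KMS28BM. HSPA5 and HSP90B1, shown above with their elements, were the ends of the range of the 7 in H929, at 0.79 and -1.24, while in KMS28BM both were above 0, at 0.59 and 1.44.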

How the data were processed

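RNA of 4 libraries, 1 per line and sorting label, was analysed. Per the labels' protocols, polyadenylated RNA was sequenced in pairs of reads on an Illumina NovaSeq. The deposited values are FPKM, per the file headers, with a floor of 0.0001 in place of 0. The deposited fold ratios, their log2 values, the p-values and the q-values are the authors' own, and no source used here gives the test behind them. The submitters' processing notes name HISAT2 2.0, StringTie 1.3.0 and Bowtie 0.12.2 without their roles. They also name mm8, a mouse build, while the gene IDs are human. Such estimates can split reads between overlapping or copied genes.

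Ratios are log2 of FPKM plus 1, taken where either library of a line reached 1 FPKM. GC content and length came from the longest coding transcript in GENCODE 29 by gene ID. The share of 50-base words found in other genes was counted there too. Single-transcript genes with the lowest values, whose FPKM times length gathers at what 1 fragment is worth, gave the depth estimate. The shared change was fitted with limma 3.58.1 in R 4.3.3 with line and sorting as terms. It used a trended moderated spread and Benjamini-Hochberg adjustment over all genes. The fit was also run on simulated data with independent noise in each library. In the real data most genes had ratios of opposite sign in the lines, so the simulation does not show how the fit performs on them. Upstream sequences came from RefSeq. Python 3.11.15, numpy 2.4.6, pandas 2.3.3 and matplotlib 3.10.9 were used.

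The genes and lists were chosen with earlier results of these data known. All genes of the set are named; of the other pathway genes, XBP1, ATF4, DDIT3, PPP1R15A and, per line, the 3 highest and 3 lowest ratios at 5 FPKM or more. Alternatives were pseudocounts of 0.1 and 5, no filter or 5 FPKM, thresholds of 1.5-fold and 4-fold, centring, a trimmed mean (each end losing 30% by ratio and 5% by level), removal of the GC and length trend, and no trend in the moderation. Centring between the lines was added after the data were seen.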

Additional observations from a re-analysis of the deposited data

Results flagged for a closer look

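For 8 of the 47 genes the ratio was 1.5-fold or more lower in H929 and 1.5-fold or more higher in KMS28BM. The same held for 8.93% of all genes measured in both lines. Each line has 1 pair, so the difference was not tested. The KMS28BM log2 ratio minus the H929 ratio was 2.68 for HSP90B1, 2.61 for SEL1L, 2.50 for DNAJC3, 2.22 for SPCS3, 2.22 for EIF2AK3, 2.19 for ERO1A, 1.68 for DNAJB9 and 1.23 for OSTC. Their GC contents lay between 35.8% for SPCS3 and 44.4% for EIF2AK3, all below the median of the 47 genes, 45.8%. With the GC and length trend removed the signs stayed opposite for all 8, though SPCS3 had only 0.023 in KMS28BM. Since the 8 were picked by these same ratios, that is no separate support. HSP90B1 and EIF2AK3 alone kept both ratios at 1.5-fold or more, as did 1.19% of all genes measured in both lines.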

How the results depend on the processing

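Depth limits the low genes only: the smallest value of the 47 genes rests on about 53 fragments. No filter gave the same values for the 47 genes in both lines, and the count of 0 in the shared fit was 0 under every alternative run, while the genes called over the whole table ranged from 0 to 35 against 14. Of the single-gene ratios under the alternatives, 628 of 652 kept their side of 2-fold, 14 fell short of it and 10 newly passed it. Of the 652, those without a filter (47 a line) and at 5 FPKM (44 a line) could not move. A filter changes which genes are kept and leaves their ratios as they were. The sign turned for 44 of the 652. In H929 11 turned with the trend removed and 10 with the trimmed mean, and in KMS28BM 15 and 7. Median centring turned SYVN1 in H929. Of the 44, 0 were past 2-fold as deposited. The cause of the shifts below was not tested, apart from thresholds, where the mark itself differs.

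The share of all genes moved with each setting and is given in brackets. In H929 the count 2-fold higher, 0 (1.59%), was 3 at 1.5-fold (7.4%). It was 2 with the trimmed mean (HSPA5 and SDF2L1, against 3.39%) and 1 with the trend removed (2.34%). The count lower, 7 (5.17%), was 16 at 1.5-fold (18.8%), 0 at 4-fold (0.325%) and 2 with the trend removed (2.32%). In KMS28BM the count higher, 3 (4.13%), was 11 at 1.5-fold (18.4%) and 0 at 4-fold (0.248%). It was 6 with a pseudocount of 0.1 (12.3%) and 0 with the trend removed (1.23%). The count lower, 0 (1.12%), was 1 with the trend removed (1.13%). With the trimmed mean the H929 medians were 0.042 for all 47 genes, 0.38 for chaperones, -0.084 for disulfide genes, 0.041 for translocation, 0.10 for degradation and -0.79 for sensors. In KMS28BM they were 0.021, -0.091, 0.021, -0.10, -0.11 and 0.25. With the trend removed the H929 medians were -0.058 for chaperones, -0.0049 for disulfide genes, 0.057 for degradation and -0.63 for sensors. In KMS28BM they were -0.011 for all 47 genes, -0.048 for disulfide genes, -0.099 for translocation, -0.072 for degradation and 0.089 for sensors. A pseudocount of 5 gave H929 medians of -0.21 for disulfide genes and -0.58 for sensors, and one of 0.1 gave -1.18 for sensors. At 5 FPKM the degradation genes in KMS28BM had -0.0011. Centring between the lines left 5 genes 2-fold higher in KMS28BM (6.04% of all genes) and 1 in H929 (9.47%). No paired analysis by replicate number was possible because each group holds 1 library; the shared fit has the line as its block, and leaving out a library would leave it no residual degrees of freedom.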
